A study of Mus musculus with 38 samples.

Results

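Prss55, Trp53tg5, Iqcf1, Cabs1 and Oxct2a are 5 of the 15117 mouse genes tested on these arrays. They were chosen by their measured levels, as genes lower in LuRKO testes than in wild-type (WT) testes at day 27 and equal or near background before that age. LuRKO mice carry no working receptor for luteinizing hormone, which drives testosterone synthesis in Leydig cells, and the WT mice were their littermates. LuRKO testes were followed at days 3, 8, 13, 19 and 27 beside WT testes of the same ages. LuRKO mice of day 19 were also given 1 intraperitoneal injection of testosterone propionate, an ester of testosterone, at 2.5 mg with testes taken after 2, 4, 8, 12, 24 and 48 h. Further LuRKO mice of day 19 received vehicle, 250 ng, 2.5 µg or 25 µg, with testes taken after 24 h. In all, 38 single-colour bead arrays fell into 20 groups, each array holding testis RNA pooled from 2 animals. The LuRKO day 27 group and the 2.5 mg 24 h group had 1 array each, taken to vary like the others, and the other 18 groups had 2.

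Sperm form in stages in the testis, from spermatogonia through meiosis to round and then elongating spermatids, and late spermatid genes are switched on only in the last of these. Androgen made by Leydig cells acts on Sertoli cells, which carry germ cells through these stages. In mice the first germ cells to mature move through the stages together after birth, so spermatid genes appear at a set age. Prss55 encodes a serine protease of the testis that in mice is needed for sperm to enter the oviduct. Iqcf1 encodes a sperm protein with calmodulin-binding IQ motifs that in mice contributes to the acrosome reaction. Cabs1 encodes a calcium-binding protein of elongating spermatids. Oxct2a encodes the testis form of the enzyme that takes up ketone bodies for energy. Trp53tg5 is named after a human gene induced by p53.

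The arrays had 23884 to 23920 of their 45281 probes above background, and values below are background-corrected log2 intensities on which 1 unit is a 2-fold difference. A value of about 6.63 or more is above background. Each member was read by 1 probe, so no second probe could check it. All 5 members passed the filter, which asked for 2 arrays above background, and Prss55, Trp53tg5 and Oxct2a passed it only through the WT day 27 arrays. Levels of different genes are not set against each other, because each has its own probe. The androgen-responsive Sertoli cell gene Rhox5, a homeobox gene, checked the injection. It averaged 11.75 at 48 h after 2.5 mg, against 7.90 in untreated LuRKO testes of day 19, a log2 difference of 3.85 (SE 0.47, limma adjusted p = 3.6e-07). The 2 arrays labelled vehicle stood apart from each other. Rhox5 was at 10.92 on vehicle replicate 1 and 8.15 on replicate 2, beside 7.98 and 7.81 on the untreated arrays. The summed log2 level of 7 androgen-responsive Sertoli cell genes was 68.38 on vehicle replicate 1 and 60.55 on replicate 2, beside 68.82 to 68.94 at 48 h after 2.5 mg and 59.37 to 60.08 in untreated testes. The sum of 7 Leydig cell markers was 57.04 on replicate 1 and 51.21 on replicate 2. It was 51.63 to 51.85 in untreated testes and 51.05 to 51.29 at 48 h after 2.5 mg. WT testes of day 19 had sums of 69.78 to 70.38 for the androgen-responsive genes and 57.83 to 59.21 for the Leydig cell markers. What set replicate 1 apart was not tested. Replicate 1 also carries an age label of 34 h beside an injection time of 24 h. It was kept as labelled, its part in the comparisons with vehicle is given by leaving it out, and Iqcf1 was alike on both arrays, at 6.77 and 6.76.

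The 5 genes lie on 5 different loci. In build GRCm38.p6, Prss55 spans chr14:64075435-64085449, Trp53tg5 chr2:164466383-164475816, Iqcf1 chr9:106499967-106502250, Cabs1 chr5:87979451-87981541 and Oxct2a chr4:123321875-123323679. Oxct2b, a near-identical retrogene of the Oxct2a family, spans chr4:123116248-123118000, and 203874 bases separate it from Oxct2a. The Iqcf1 gene stands at the head of a run of related genes on chromosome 9, with Iqcf3, Iqcf5 and Iqcf4 beside it. Promoters of the members follow, because genes that appear together at day 27 may be compared by what stands before their starts. Sequences are from RefSeq in GRCm38.p6 for the 4 members of 5 with an entry and for Oxct2b, each of 300 bases, from 250 bases before the start to 50 after it, and capitals mark TGACG or TGACNTCA on either strand.
Trp53tg5 (chr2:164473675-164473974, minus strand): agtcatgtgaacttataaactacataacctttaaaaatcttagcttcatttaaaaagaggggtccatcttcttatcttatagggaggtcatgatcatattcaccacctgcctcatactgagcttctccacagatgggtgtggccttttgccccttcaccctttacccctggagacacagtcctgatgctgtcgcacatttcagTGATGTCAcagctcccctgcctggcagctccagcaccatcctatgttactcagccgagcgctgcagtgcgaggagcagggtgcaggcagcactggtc
Iqcf1 (chr9:106499717-106500016, plus strand): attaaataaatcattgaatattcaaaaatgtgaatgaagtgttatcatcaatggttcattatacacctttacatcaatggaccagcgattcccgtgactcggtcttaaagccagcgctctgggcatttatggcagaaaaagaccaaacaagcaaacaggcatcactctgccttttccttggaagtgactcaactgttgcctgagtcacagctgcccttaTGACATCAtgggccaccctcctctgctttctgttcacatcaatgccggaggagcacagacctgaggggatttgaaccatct
Cabs1 (chr5:87979201-87979500, plus strand): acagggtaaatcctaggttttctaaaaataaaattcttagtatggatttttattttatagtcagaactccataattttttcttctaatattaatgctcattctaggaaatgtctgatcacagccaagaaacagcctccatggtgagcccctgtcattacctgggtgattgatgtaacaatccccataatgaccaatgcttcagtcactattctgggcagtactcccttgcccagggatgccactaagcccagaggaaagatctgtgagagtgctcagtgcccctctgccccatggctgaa
Oxct2a (chr4:123323630-123323929, minus strand): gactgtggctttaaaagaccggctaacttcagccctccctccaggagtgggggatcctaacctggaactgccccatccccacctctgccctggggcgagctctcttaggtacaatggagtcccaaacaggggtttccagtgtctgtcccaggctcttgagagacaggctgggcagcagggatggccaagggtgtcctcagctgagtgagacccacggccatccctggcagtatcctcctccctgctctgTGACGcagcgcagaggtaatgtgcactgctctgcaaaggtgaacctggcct
Oxct2b (chr4:123115998-123116297, plus strand): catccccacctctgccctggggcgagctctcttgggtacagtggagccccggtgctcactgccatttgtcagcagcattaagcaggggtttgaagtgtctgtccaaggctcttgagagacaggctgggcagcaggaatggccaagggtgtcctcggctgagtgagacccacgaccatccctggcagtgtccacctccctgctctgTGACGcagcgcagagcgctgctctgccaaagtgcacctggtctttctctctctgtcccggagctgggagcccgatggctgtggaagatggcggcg
TGACG is the first part of the cyclic AMP response element, TGACGTCA, to which the spermatid regulator CREM is known to bind. The Trp53tg5 window lies inside the gene span given above, so the start used for it is not the outer end of that span. Trp53tg5 held TGATGTCA 47 bases before its start and Iqcf1 held TGACATCA 31 bases before its start. These 2 matches are the same letters read on opposite strands. The Oxct2a match begins at the base just before the start, and the Oxct2b match begins 45 bases before its start. Cabs1 held neither. TGACG stood in 20.8% of all 32851 promoters of the table and TGACNTCA, a motif chosen after these sequences were read, in 8.83%. Full TGACGTCA stood in 1.79% of promoters and in none of the 5 shown. TATAAA (13.6% of promoters) stood 237 bases before the start in Trp53tg5 and, as its reverse, 197 bases before in Cabs1. GTTGCC (12.5%) stood 56 bases before the start of Iqcf1, and ACAATG (12.6%) 140 bases before that of Oxct2a. AGAACA (19%) was in none of the 5. A match is only a match of letters in these windows. The Oxct2a and Oxct2b windows share a longest run of 33 bases, which begins at base 74 of the Oxct2a window and base 1 of the Oxct2b window.

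All 5 genes were far above background in WT testes at day 27. At the other ages and in LuRKO testes they were near or below it, except for Cabs1 and Iqcf1 in LuRKO testes of day 27. Prss55 was at 6.27 in the LuRKO day 27 array and at 11.49 and 11.58 in the WT arrays of that age. Trp53tg5 was at 6.34 in the LuRKO array, against 11.54 and 11.55 in the WT arrays. Iqcf1 was at 7.14 in the LuRKO array, against 12.47 and 12.53 in the WT arrays. All 3 genes had the LuRKO array below both WT arrays, and the WT arrays lay close to each other. Cabs1 was at 7.95 in the LuRKO array, against 13.92 and 14.17 in the WT arrays. Oxct2a was at 6.52 in the LuRKO array, against 12.45 and 12.60 in the WT arrays. The LuRKO array was again below both WT arrays. The working name of the group calls the 5 genes absent in LuRKO testes, and the data give this only in part. Prss55, Trp53tg5 and Oxct2a were not above background in the LuRKO day 27 array, while Iqcf1 and Cabs1 were.

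These day 27 values chose the members, so the differences are given as description, with no test. Cabs1 was 68.2-fold lower in LuRKO at day 27 (log2 -6.09). Oxct2a was at least 59.3-fold lower, Iqcf1 41.2-fold lower, Trp53tg5 at least 30.1-fold lower and Prss55 at least 29.9-fold lower, where "at least" marks a LuRKO value not above background. Lower calls by limma at day 27 took 20.9% of all genes and higher calls 34.3% at this age.

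**Figure D1:**
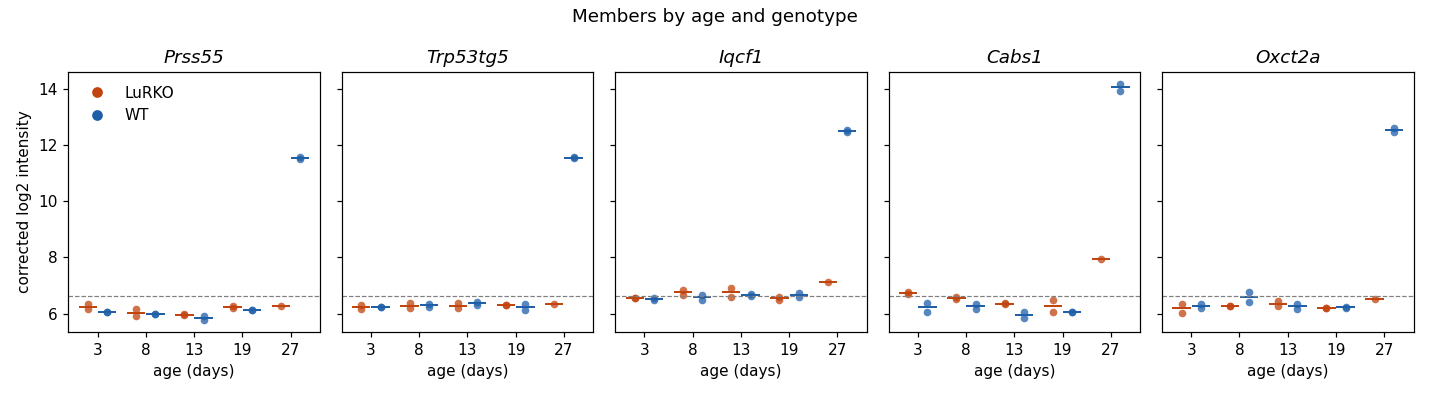
Corrected log2 intensity (vertical axis) of each member by age in days (horizontal axis), LuRKO left of WT at each age. Points are arrays, short lines are group means and the dashed line is the background threshold; the WT day 27 arrays, between 11.49 and 14.17, stand above all others.

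From day 3 to day 19 the members stayed near background in both genotypes. Prss55 and Trp53tg5 were above background on 0 of the 36 arrays that are not WT day 27, at 5.77 to 6.33 and at 6.04 to 6.43. Oxct2a was above background on 1 of these 36 arrays, a WT day 8 array at 6.75. Cabs1 was above background on 4 of them and Iqcf1 on 26, with the highest Iqcf1 value at 7.37. Iqcf1 was thus weakly above background on most of these arrays, by its 1 probe, and whether that probe read only Iqcf1 was not tested. The lower of the WT day 27 arrays stood above the highest of the other 36 arrays by 5.10 to 5.97, depending on the gene. Among all 15117 genes, 189 were above background on both WT day 27 arrays and on no other array, and of the members Prss55 and Trp53tg5 are among those 189.

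Cabs1 had slightly higher values in LuRKO testes than in WT testes at the early ages. It was at 6.76 and 6.69 in LuRKO testes of day 3, against 6.05 and 6.39 in WT testes, and at 6.35 and 6.36 in LuRKO testes of day 13, against 5.82 and 6.07 in WT testes. At day 8 it was at 6.50 and 6.60 in LuRKO testes, against 6.16 and 6.36 in WT testes. Only the LuRKO day 3 arrays were above background, and no member was called between the genotypes at day 3, 8 or 13. These ages were also looked at when the members were chosen, so the values are description.

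In LuRKO testes from day 19 to day 27, Cabs1 and Iqcf1 came above background and the other 3 members did not. Iqcf1 had already been above it on 2 LuRKO arrays of day 8 and 1 of day 13. Cabs1 at day 27 was at least 2.50-fold above day 19 (log2 difference 1.68) and Iqcf1 at least 1.42-fold (0.60), with neither above background at day 19. Prss55, Trp53tg5 and Oxct2a were below background at both ages. In WT testes all 5 members were higher at day 27 than at day 19. The difference was at least 170.5-fold for Cabs1, 59.3-fold for Oxct2a, 30.1-fold for Trp53tg5 and 29.9-fold for Prss55, all 4 below background at day 19. Iqcf1 was 57.1-fold higher, with 1 of its WT day 19 arrays above background. Cabs1 had a LuRKO day 27 value (7.95) above its LuRKO day 19 arrays (6.49 and 6.06), while Prss55 (6.27, against 6.18 and 6.28) and Trp53tg5 (6.34, against 6.32 and 6.30) lay at the day 19 level. Both comparisons use arrays by which the members were chosen.

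Genes of the same stage were read next to set the members in their surroundings, from lists of late spermatid genes, of acrosome and round spermatid genes and of meiotic prophase genes, none of which holds a member. RNA of whole testes cannot tell fewer cells of a type from less RNA per cell. At day 27 all 26 late spermatid genes tested were lower in LuRKO testes (median log2 -4.45, all genes 0.14), as were 20 of 23 acrosome and round spermatid genes (median -3.63), by limma with adjusted p under 0.05. Prm1, a protamine that packs sperm DNA, was lower by 5.62 (9.62 in LuRKO, 15.25 in WT). Tssk6, a testis kinase, was lower by 5.32. Of 14 meiotic prophase genes 4 were higher and 3 lower (median 0.20), near the 34.3% of all genes higher and 20.9% lower. Pgk2, a glycolytic enzyme of germ cells, was lower at 12.36 in LuRKO and 13.96 in WT, and Meiob, which acts in meiotic recombination, was higher at 12.67 in LuRKO and 11.13 in WT.

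Markers of other cell types were called at day 27 too, where 34.3% of all genes were higher and 20.9% lower. Counts for Leydig cell, macrophage, epididymal and erythroid markers lay near these shares, given their few genes. The part of these cell types in the members' decrease was not tested. Of 8 Sertoli cell markers 6 were higher in LuRKO testes and of 9 spermatogonial markers 6 were higher, and none in either list was lower. Their summed log2 levels were 85.51 in the LuRKO array and 78.61 to 78.83 in the WT arrays for Sertoli cell markers, with 78.85 in LuRKO and 72.41 to 73.11 in WT for spermatogonial markers. All 8 Sertoli cell markers and all 9 spermatogonial markers were above background in the LuRKO array. Of 7 Leydig cell markers 2 were higher and 2 lower, with sums of 54.32 in LuRKO and 59.63 to 59.74 in WT. Cyp17a1 differed by -4.23 and Insl3 by -2.89, while Cyp11a1 differed by 1.68 and Hsd3b1 by 0.80. Of 6 macrophage markers 1 was higher and 2 were lower, with sums of 49.35 in LuRKO and 51.32 to 51.52 in WT. All 6 macrophage markers were above background in both genotypes. Of 4 peritubular myoid markers 3 were higher and 1 was lower, with sums of 37.65 in LuRKO and 36.66 to 36.77 in WT. Of 5 epididymal markers 1 was higher (sums of 34.48 in LuRKO and 33.47 to 33.69 in WT), and of 3 erythroid genes 1 was lower (25.57 in LuRKO and 26.35 to 26.57 in WT).

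At day 19 the members were near background in both genotypes, with 1 WT array of Iqcf1 above it (6.75), while genes of the stage lists already differed. By limma 13 of 26 late spermatid genes were lower in LuRKO testes and 1 was higher (median -0.39, all genes 0.02). Of 23 acrosome and round spermatid genes 16 were lower and none was higher (median -0.74). Lower calls at this age took 11.2% of all genes and higher calls 12%. In WT testes from day 19 to day 27, 25 of 26 late spermatid genes rose (median 5.15, all genes -0.17), against 15.2% of all genes higher and 36.1% lower.

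In LuRKO testes the same lists rose in part from day 19 to day 27. By limma 14 of 26 late spermatid genes rose and none fell (median 0.70, all genes -0.01), and of 23 acrosome and round spermatid genes 14 rose and 1 fell (median 0.84), where 4.97% of all genes were called higher and 4.45% lower. Ropn1, a protein of the sperm fibrous sheath, was at 9.27 at day 27 and 6.47 at day 19 (log2 difference 2.79, SE 0.25). Akap4, the anchor of that sheath, rose by 2.16 (SE 0.27). Capza3, an actin-capping protein of spermatids, rose by 2.62 (SE 0.31). Genes of the late list with differences below 0.45 in size included Tssk6, Tnp2 and Spata3. Of 14 meiotic prophase genes 1 rose.

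In testes treated with 2.5 mg for 48 h, 1 of the 5 members was called, and it was Iqcf1. This comparison and the other testosterone ones were not used to choose the members, although the untreated day 19 arrays were among the ages looked at. The 48 h testes came from injected mice that were 48 h older than the untreated ones, and vehicle was taken only at 24 h. Testosterone, injection and age therefore cannot be told apart at 48 h, here or for the other genes and lists below. Iqcf1 was at 7.0 and 7.23 at 48 h, against 6.48 and 6.60 in untreated LuRKO testes, a log2 difference of 0.57 (SE 0.12, limma adjusted p = 3.5e-04), at least 1.40-fold. Both treated arrays were above background and above both untreated arrays, which were below background. Higher calls at 48 h took 16.2% of all genes and lower calls 15.9%, so 1 call among 5 members does not stand out. The other members differed by 0.19 (95% interval -0.09 to 0.47) for Oxct2a, 0.10 (-0.27 to 0.47) for Cabs1, -0.05 (-0.27 to 0.16) for Prss55 and -0.10 (-0.32 to 0.13) for Trp53tg5, and none passed the test. For these 4 the arrays of both groups were at or near background, with 1 Cabs1 array at 6.71 at 48 h, so a small change in them was not detectable on these arrays. The median of the 5 members, which rests mostly on values below background, was 0.10, and that of all genes was 0.01.

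Against vehicle, Iqcf1 was at 7.0 and 7.23 after 48 h, with 6.77 and 6.76 in vehicle-treated testes taken at 24 h. The difference was 0.35 (SE 0.12, limma adjusted p = 0.032), and 21.2% of all genes were called in this comparison. The difference was 0.23 without 48 h replicate 2 and was then not called. It stayed at 0.35 without vehicle replicate 1, the array that stood apart, and at 0.34 without vehicle replicate 2, and with 1 vehicle array left neither was called (adjusted p = 0.090 and 0.14). Calls took 18.4% of all genes without vehicle replicate 1 and 8.24% without replicate 2. Without 48 h replicate 1 a second member, Cabs1, was called. Vehicle itself lay above untreated testes by 0.22 for Iqcf1, which was not called.

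Iqcf1 was also higher early after the injection. Against untreated testes it was higher by 0.73 at 2 h (7.37 and 7.17, SE 0.12, limma adjusted p = 2.9e-05), by 0.70 at 4 h (7.18 and 7.30, adjusted p = 3.9e-05) and by 0.49 at 8 h (7.07 and 6.99, adjusted p = 0.0030). All 6 of these arrays were above both untreated arrays, as were both vehicle arrays (6.77 and 6.76). Vehicle was taken only at 24 h, so testosterone and injection cannot be told apart from 2 h to 12 h either. The untreated mean, 6.54, was below background and the lowest of all LuRKO groups, beside 6.75 at day 8 and 6.76 at day 13. At 12 h the difference was 0.32 and at 24 h 0.21, and neither was called. Against vehicle in place of untreated testes the difference was 0.50 at 2 h and 0.48 at 4 h, both called, and 0.26 at 8 h, not called. Without vehicle replicate 1 these were 0.51 at 2 h, 0.48 at 4 h and 0.27 at 8 h, none of them called. Without vehicle replicate 2 they were 0.50, 0.47 and 0.26, and the 4 h difference was called. Against both vehicle arrays, the call was also lost at 2 h without 2 h replicate 1 (0.40) and at 4 h without 4 h replicate 2 (0.41). Calls took 21% of all genes at 2 h, 27.4% at 4 h, 20.9% at 8 h, 16.5% at 12 h and 9.87% at 24 h. No other member was called from 2 h to 24 h, and at an unadjusted p under 0.05 only Prss55 at 12 h and Cabs1 at 24 h were added, both lower, besides Iqcf1 at 12 h.

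No member was called at any dose against vehicle by limma, with both vehicle arrays or without either. Prss55, Trp53tg5, Cabs1 and Oxct2a were below background on all dose and vehicle arrays, and only Iqcf1 was above it. At 2.5 µg Iqcf1 had an unadjusted p under 0.05. Iqcf1 was at 6.77 and 6.76 with vehicle, at 6.93 and 6.97 with 250 ng, at 7.10 and 7.07 with 2.5 µg, at 6.96 and 7.04 with 25 µg and at 6.75 on the single 2.5 mg array. The arrays of the 3 lower doses lay above both vehicle arrays and the top dose did not. Without vehicle replicate 1 the differences from vehicle were 0.19 at 250 ng, 0.33 at 2.5 µg and 0.24 at 25 µg. Calls took 0.0595% of all genes at 250 ng, 0.0529% at 2.5 µg, 0.456% at 25 µg and 4.83% at 2.5 mg. Without vehicle replicate 1 they took 0.0199%, 0.0331%, 0.318% and 2.85% at these doses.

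**Figure D2:**
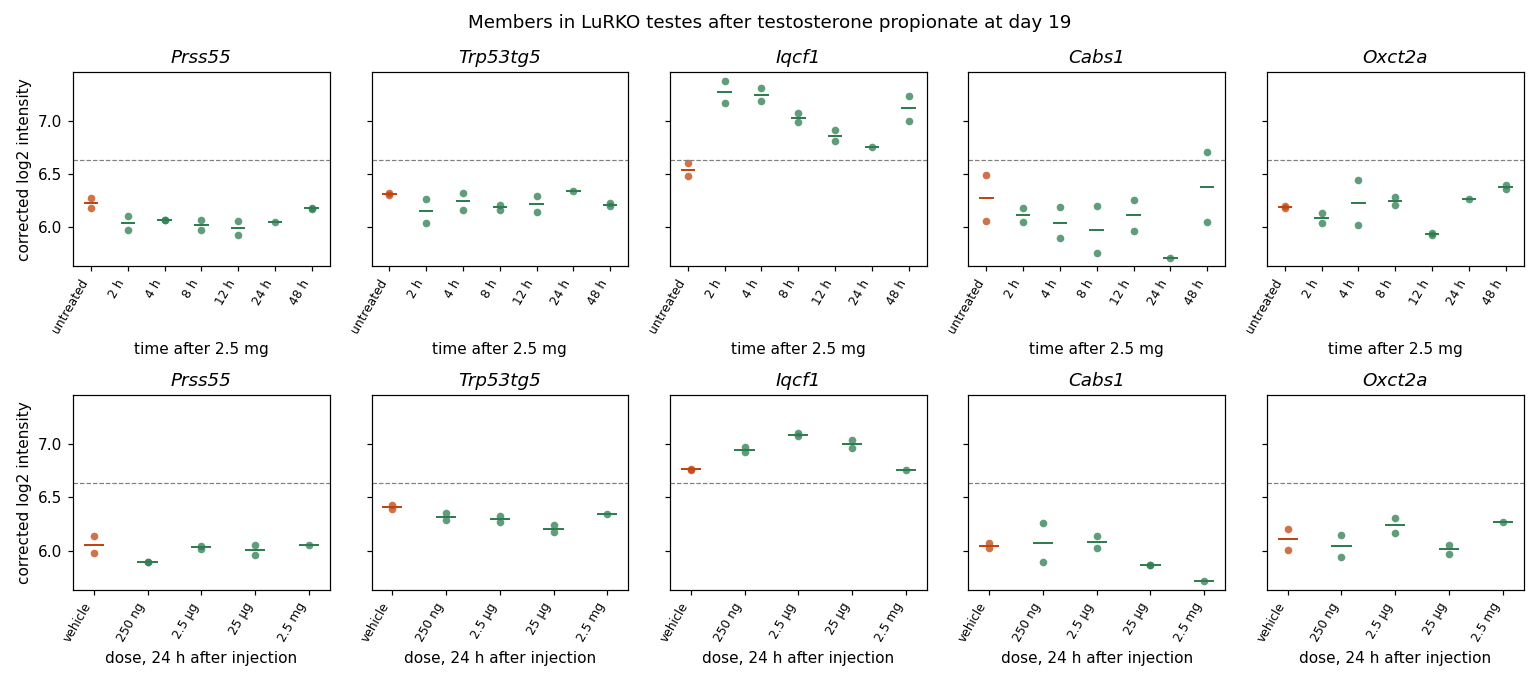
Corrected log2 intensity (vertical axis) of each member in LuRKO testes by time after 2.5 mg testosterone propionate (upper row, from untreated) and by dose at 24 h (lower row, from vehicle). Points are arrays, short lines are means and the dashed line is the background threshold; Iqcf1 rises above it from 2 h, at 7.37 and 7.17, and the other members stay near or below it.

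Of the Iqcf genes beside Iqcf1 on chromosome 9, Iqcf5 and Iqcf4 rose at 48 h and Iqcf3 was not called. At 48 h Iqcf5 was at 8.44 and 9.58, against 6.66 and 6.40 in untreated LuRKO testes, a log2 difference of 2.48 (SE 0.25, limma adjusted p = 1.6e-08). Iqcf4 was at 7.11 and 8.45 at 48 h, against 6.32 and 6.04 in untreated testes, a difference of 1.60 (SE 0.23, adjusted p = 5.9e-06), at least 2.21-fold. Both treated arrays of each gene were above both untreated arrays, and the 2 treated arrays lay far apart. The Iqcf4 difference was 2.27 without 48 h replicate 1 and 0.93 without replicate 2, both called. Iqcf3 was at 6.75 and 7.10 at 48 h, against 6.76 and 6.68, and was not called (0.20, SE 0.14). At 12 h Iqcf5 was at 7.69 and 6.81, which is above its untreated arrays, while at 2 h, 4 h and 8 h it was below background. Iqcf1 was called from 2 h, and the difference in time between it and Iqcf5 was not tested.

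At day 27 Iqcf4 was at 8.63 and Iqcf5 at 9.52 in the LuRKO array, against 12.78 and 12.56 for Iqcf4 and 13.27 and 13.51 for Iqcf5 in WT arrays. From day 19 to day 27 in LuRKO testes Iqcf5 rose by 2.99 (SE 0.30, limma adjusted p = 1.7e-07) and Iqcf4 by 2.45 (SE 0.29, adjusted p = 1.1e-06), beside 0.60 for Iqcf1 and 0.45 for Iqcf3. In WT testes of day 19 Iqcf5 was already on, at 7.83 and 8.36, and Iqcf4 weakly on, at 6.64 and 7.16, while Iqcf1 was at 6.75 and 6.59. Of 13 genes of the IQ motif list 7 were higher at 48 h and none lower (median 0.51), beside 16.2% of all genes higher and 15.9% lower.

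**Figure D3:**
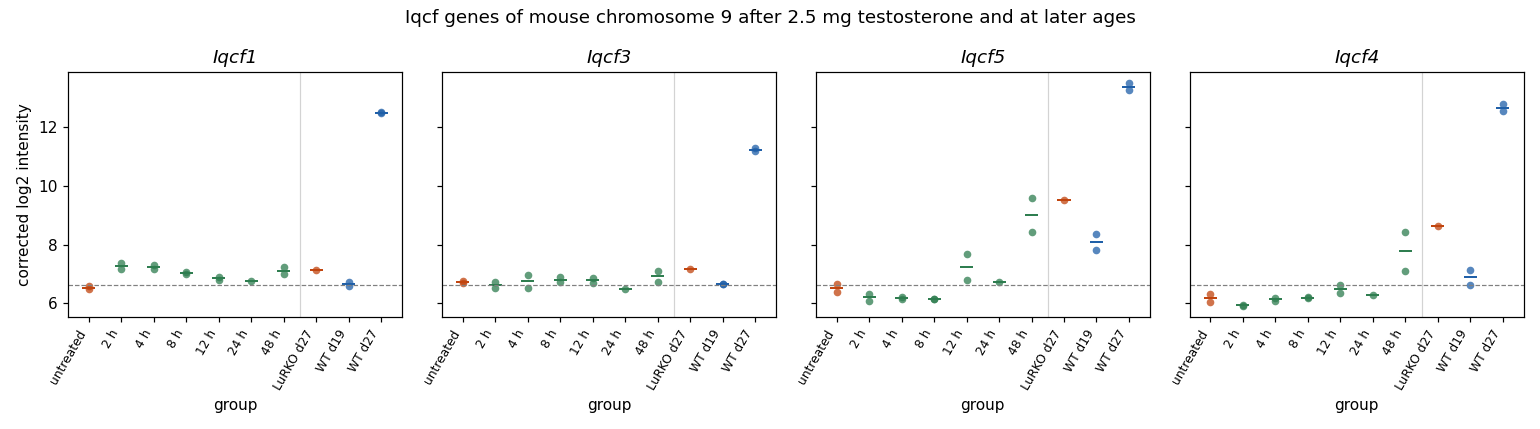
Corrected log2 intensity (vertical axis) of 4 Iqcf genes by group (horizontal axis), with untreated LuRKO day 19 testes and times after 2.5 mg at left, and LuRKO day 27, WT day 19 and WT day 27 at right. Points are arrays and lines are means; Iqcf5 reaches 8.44 and 9.58 at 48 h, where Iqcf1 is at 7.0 and 7.23.

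Oxct2b followed Oxct2a, though the probes may read both genes, since probe sequences were not used here. It was at 6.22 in the LuRKO day 27 array and at 12.16 and 12.37 in WT arrays, at least 49.7-fold lower. At 48 h it differed by 0.29 (SE 0.15) and was not called. Oxct1, the form of the enzyme in most tissues, was in contrast at 10.95 in the LuRKO array and at 10.03 and 9.94 in WT arrays of day 27, higher by 0.96 (SE 0.15, limma adjusted p = 4.8e-06). At 48 h Oxct1 differed by -0.05 and was not called. Of 6 ketone body genes tested, 2 were higher and 1 was lower at day 27, and 1 was higher and 1 lower at 48 h. These counts lay near the shares of all genes, 34.3% higher and 20.9% lower at day 27 and 16.2% and 15.9% at 48 h.

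Prss55 has many relatives among testis serine proteases. Of 15 tested, 12 were lower and 1 higher at day 27 (median -1.59), and 9 were higher at 48 h (median 0.62). Among all genes, 20.9% were lower and 34.3% higher at day 27, and 16.2% were higher at 48 h. Prss52 was at 6.12 in LuRKO and 10.84 in WT at day 27. Prss37, which in mice is needed for sperm to reach the oviduct, was at 6.35 in LuRKO and at 9.87 and 9.89 in WT arrays. At 48 h it differed by -0.07 and was not called. Prss43 rose by 0.95 (SE 0.20) and Prss42 by 0.92 (SE 0.16) at 48 h. Among genes that process sperm surface proteins, 8 of 11 were lower and 3 higher at day 27. Pdilt, a chaperone of the testis, was at 7.97 in LuRKO and 12.40 in WT, and rose by 1.91 (SE 0.18) at 48 h. Calr3, a testis calreticulin, was at 7.52 in LuRKO and 12.25 in WT.

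The late spermatid list was in part higher at 48 h than in untreated testes, a difference that also spans 48 h of age. Of all genes, 16.2% were called higher and 15.9% lower. By limma 13 of 26 genes rose and 1 fell (median 0.45, all genes 0.01), and of 23 acrosome and round spermatid genes 16 rose and 1 fell (median 0.94). Odf1, of the sperm tail outer dense fibres, averaged 9.33 at 48 h and 7.08 in untreated testes (difference 2.25, SE 0.22). Acrv1, of the acrosome, averaged 9.39 at 48 h and 6.89 in untreated testes (2.50, SE 0.23). Smcp, of the mitochondrial sheath, rose by 2.14 (SE 0.20). Prm1 fell by 1.36 from an untreated mean of 7.87, which itself lay above the 6.28 of WT testes of day 19. Of the genes of the list with the smallest differences, Tppp2 was at 0.01 and Spata3 at -0.05, beside Prss55 at -0.05 and Trp53tg5 at -0.10. Of 14 meiotic prophase genes 4 rose and 2 fell. Markers of other cell types were called at 48 h as well, and the part of these cell types in the values was not tested. Of 8 Sertoli cell markers 4 fell and none rose, with summed log2 levels of 84.47 to 84.62 at 48 h and 86.69 to 86.84 in untreated testes. Of 9 spermatogonial markers 6 fell and none rose, with sums of 74.00 to 74.24 at 48 h and 79.58 to 79.69 in untreated testes. Of 6 macrophage markers 4 rose and none fell, with sums of 49.83 to 50.30 at 48 h and 46.63 to 47.28 in untreated testes. Of 7 Leydig cell markers 1 rose and 3 fell, with sums of 51.05 to 51.29 at 48 h and 51.63 to 51.85 in untreated testes. Of 4 peritubular myoid markers 2 rose and none fell, with sums of 39.18 to 39.62 at 48 h and 38.09 to 38.56 in untreated testes. Of 5 epididymal markers 1 fell, with sums of 33.20 to 33.25 at 48 h and 33.22 to 34.37 in untreated testes. No erythroid gene of 3 was called, with sums of 27.89 to 28.68 at 48 h and 26.02 to 28.13 in untreated testes. Among 13 regulators of spermatid transcription and translation, 8 rose and 1 fell. Klhl10 rose by 1.68 (SE 0.18) and Fhl5, a partner of CREM, by 1.37 (SE 0.24), while Taf7l fell by 0.72 (SE 0.18).

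**Figure D4:**
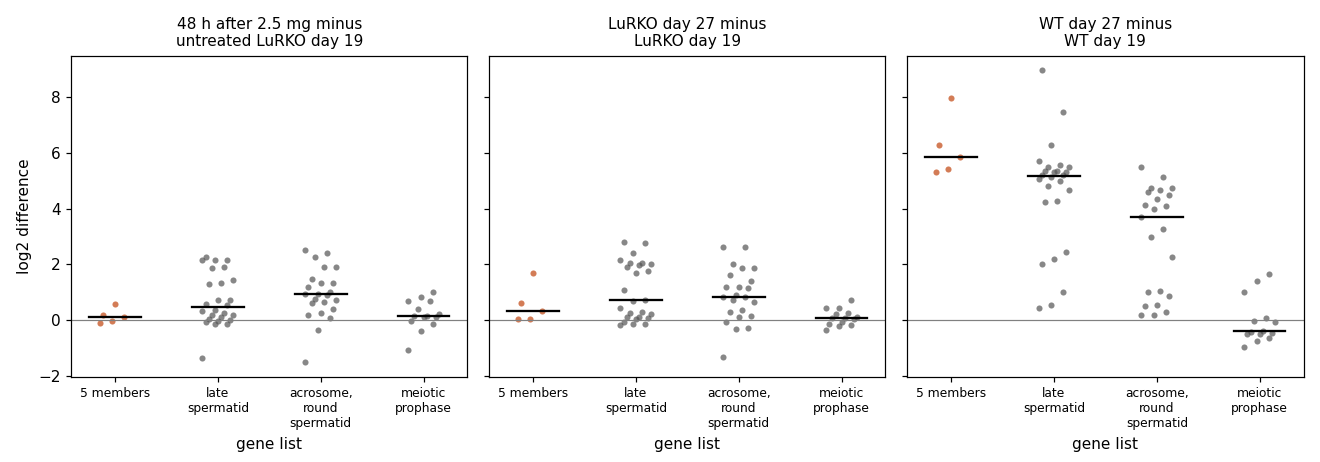
Log2 difference (vertical axis) of single genes in the 5 members and 3 lists (horizontal axis), for 48 h after 2.5 mg minus untreated LuRKO, LuRKO day 27 minus day 19 and WT day 27 minus day 19. Points are genes and lines medians; the late spermatid median is 0.45, 0.70 and 5.15, and most member values are below background in at least 1 of the groups set against each other.

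The change from day 19 to day 27 was lower in LuRKO than in WT testes for 23 of 26 late spermatid genes and higher for none, by limma's interaction term, and for 17 of 23 acrosome and round spermatid genes, where lower calls took 13.2% of all genes and higher calls 21.7%. Of 14 meiotic prophase genes 1 was lower and 3 were higher.

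The genes most like each member were read over the 20 group means by Pearson's r, as a description of profiles that share the same WT day 27 arrays. For Prss55 these were Xaf1 (r = 0.997), Adam6a and Tepp. For Trp53tg5 they were 1700016C15Rik (r = 0.996), 1700042G07Rik and Prss52. For Iqcf1 they were 4933411K16Rik (r = 0.994), Cypt15 and Cct8l1. For Cabs1 they were Tnp1 (r = 0.994), a transition protein of spermatid chromatin, H2al1m and H2al1e, both histone variants. For Oxct2a they were Tex37 (r = 0.997), Oxct2b and Ubqlnl. Between the members r was 0.95 to 0.99 over 20 groups, and without the WT day 27 group -0.30 to 0.60 over 19, so that the likeness rests on that group.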

How the data were processed

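RNA of mouse testes was measured on 38 single-colour bead arrays. BeadStudio is named for the scans per the submitters' processing notes, without a version. The deposited values are probe intensities on a linear scale with array medians of 108.1 to 108.3, and the authors' normalization is not named in the labels. Non-normalized signals in another table were left out, since none of its 76 columns could be matched to a label.

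Starting from the deposited intensities, limma 3.58.1 under R 4.3.3 was used for normexp background correction (offset 50), and corrected values were put on a log2 scale. The mode of all intensities, 76.2, was taken as background. The threshold of 102.7 follows from the scatter under that mode (one-sided, 0.01). Of 45281 probes, 34885 carried 1 symbol, 18 several and 10378 none listed. Probes had to pass the threshold on 2 or more arrays, which left 25667 with 1 symbol, and each of 15117 genes was given by its brightest probe. One fit of group means over all arrays (18 residual and 10.4 prior degrees of freedom) gave Benjamini-Hochberg adjusted p-values, called under 0.05. They measure the spread between arrays of pooled animals, and the number of arrays limits the precision. For a group with no array above background, the fold is a bound ("at least") against the threshold or, where higher, the measured signal.

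The members and lists were chosen with earlier results of these data known. Lists held 208 entries, of which 206 matched a current symbol and 170 were tested. Named genes were the members, their families, up to 4 called genes with the largest difference per list and comparison, the 3 most alike by r and 3 androgen check genes. Genes of a list named for small differences (Tssk6, Tnp2, Tppp2, Spata3) and Prm1 at 48 h were picked after their values were seen. The fit was tested on simulated data. Other settings tried were the background correction, scaling, filter, probe rule, replicate block, arrays in the fit, control group and leaving out each array. Those for Iqcf1 at 2, 4 and 8 h and against vehicle, for Iqcf4 and Iqcf5, and leaving out vehicle replicate 1 elsewhere were chosen after seeing the data. Protein sequences were not used here.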

Additional observations from a re-analysis of the deposited data

Results flagged for a closer look

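By limma's interaction term, 23 of 26 late spermatid genes had a lower change from day 19 to day 27 in LuRKO than in WT testes. So had 17 of 23 acrosome and round spermatid genes. Of 14 meiotic prophase genes 1 was lower and 3 were higher. Lower calls took 13.2% of all genes and higher calls 21.7%, so the meiotic counts do not stand out. These were picked out because the 2 genotypes differed under the same contrast between ages.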

How the results depend on the processing

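Of 170 recounts under another setting, 158 stayed within 1.5 times of the count reported, and of 239 single differences 227 kept their sign and side of the threshold. Members called from 2 to 24 h after 2.5 mg numbered 3, and 5 with a normexp offset of 16, where Iqcf1 at 12 h (higher) and Prss55 at 12 h (lower) were added, and 3 to 4 without single arrays. Members called at 48 h against vehicle numbered 0 to 2 without single arrays. Meiotic prophase genes called in LuRKO at day 27 against day 19 numbered 0 with an offset of 16, 2 with no filter on dim probes, 0 with only the arrays over age and 0 to 1 without single arrays. Meiotic prophase genes called at 48 h numbered 3 with only the testosterone, vehicle and untreated arrays and 3 to 6 without single arrays. The cause was not tested. Among differences not called, Prss55 at 48 h turned to 0.12 against vehicle, and Cabs1 ran from -0.23 (without 48 h replicate 2) to 0.43 without single arrays, with -0.12 without untreated replicate 2. Array letters were shared across groups, but B minus A correlated between groups at -0.26 to 0.25 (median 0.01), so they do not pair samples. With the letter as a replicate block, members called at 48 h numbered 1 and late spermatid genes called at 48 h numbered 14, as without it, and no other call on a member changed. With only the testosterone arrays, Iqcf1 was the member left to test, and with a filter of 4 arrays Iqcf1 and Cabs1 were. Leaving out vehicle replicate 1, chosen after seeing the data, changed no call given against untreated testes or between ages among those recomputed. Signal near background limits Prss55, Trp53tg5, Cabs1 and Oxct2a before day 27.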
